A study of Danio rerio with 18 samples.

Results

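Voltage-gated sodium, potassium and calcium channels carry the action potentials of nerve and muscle, start muscle contraction and trigger transmitter release. A sodium or calcium channel has 1 large pore-forming subunit with built-in voltage sensors, whereas potassium channels are assembled from separate pore subunits, and auxiliary subunits set the number, place and kinetics of the channels. In zebrafish many of these genes are present as a pair of copies, marked a and b, that remained after a duplication of the ancestral fish genome. The genes described here are all those whose symbol begins with kcn, with cacn, or with scn followed by a digit, 176 of the 25581 genes in the tables: 14 scn, 117 kcn and 45 cacn genes. The rule uses names alone, and it takes in more than voltage-gated pores. By class, 70 of the 176 encode pore subunits with voltage sensors (sodium alpha, Kv, KCNQ, EAG and cacna1 subunits, with the silent Kv subunits counted among them), 58 encode inward rectifiers (kcnj), background channels (kcnk) or channels gated by calcium or sodium ions (kcnma, kcnn, kcnt, of which the kcnma1 copies also sense voltage), and 48 encode auxiliary subunits.

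Whole larvae were compared by RNAseq between wild types and sox10 mutants (genotype sox10-/-) at 45 hpf and 4 dpf, with 3 libraries per genotype and stage. Each library was made from a pool of 10 to 25 larvae. Sox10 is the transcription factor of neural crest lineages, among them pigment cells, glia and peripheral neurons. The mutants carried the ci3020 allele, a deletion in which the first coding exon is lost together with a stretch of the 5′UTR and after which some transcription remains, and the controls were stage-matched wild-type relatives from lines kept as heterozygotes, with no other allele or agent named for either group. Another table, labelled 7 dpf, holds the same values as the 4 dpf table in all 25896 lines. It was not used, and the stage of the second set of values is therefore given as that of the 4 dpf table. Values are TPM, the usual length-scaled unit, in which an estimated read count is divided by transcript length and by the library's total, so that levels can be compared between genes. Because stage and table change together, they cannot be told apart in any comparison between the tables. In whole larvae, fewer cells of a type and less RNA per cell cannot be told apart either.

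The libraries did not all resemble their group. In the 4 dpf table, genes above 10000 TPM in any library held 17.6 to 20.4% of the summed TPM in wild types and 25.8 to 42.5% in mutants, and mutants 1 and 3 had the smallest scaling factors of their table, 0.716 and 0.927 by the median-of-ratios method. The neuronal gene vamp2 stood at 108, 44.9 and 115 TPM in wild types against 5.75, 37.2 and 7.89 TPM in mutants, whereas snap25a, another gene of the synaptic release machinery, stood between 400.0 and 483 TPM in all 6. Skeletal muscle markers (10 genes) summed to 29659 to 47564 TPM in wild types against 4897, 37705 and 14711 TPM in mutants 1 to 3. At 45 hpf mutant 3 stood apart, with 27.9% of its TPM in genes above 10000 TPM against 11.7 to 17.2% in the other 5. By these measures mutant 2 of the 4 dpf table and mutant 1 of 45 hpf lay closest to the wild types, and results are given with and without single libraries where that changes them. The part of these differences in the channel values was not tested. The labels do not say that libraries came from separate clutches, so p-values measure the spread between these pools. The sox10 transcript itself, of which some is still made from the allele, did not separate the genotypes. It stood at 9.47, 14.0 and 11.7 TPM in wild types against 11.2, 9.14 and 6.61 TPM in mutants at 45 hpf (two-sided exact permutation test, p = 0.2), and at 7.33, 5.25 and 6.02 TPM in wild types against 5.77, 8.41 and 6.39 TPM in mutants of the 4 dpf table (two-sided exact permutation test, p = 0.6, where 0.1 is the smallest p possible).

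The channel genes together made up 428 ± 61.7 TPM of wild types at 45 hpf and 868 ± 126 TPM in the 4 dpf table (SD, n = 3), and 359 ± 110 and 606 ± 81.3 TPM of mutants. Wild-type libraries held 362, 485 and 438 TPM at 45 hpf and 921, 724 and 959 TPM in the 4 dpf table, so every library of the later table lay above every library of the earlier one. In mutants the values were 481, 331 and 266 TPM and then 516, 673 and 630 TPM, again without overlap. In wild types 79 of the 176 genes reached 1 TPM in all 3 libraries at 45 hpf, and 109 did in the 4 dpf table. No gene was at 0 in all 12 libraries. Tests were run where 3 or more of a table's 6 libraries reached 1 TPM: 90 at 45 hpf, 114 in the 4 dpf table and 80 in both, which leaves 52 genes untested in either.

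Auxiliary subunits were the most abundant transcripts of the set. The calcium channel beta subunit gene cacnb4b (a cytoplasmic subunit that carries the pore to the membrane and, in mammals, serves mainly neurons) was the highest at 45 hpf, with 58.3 ± 5.02 TPM in wild types against 52.4 ± 9.62 TPM in mutants (SD, n = 3), and it made up 13.7% of the wild-type channel TPM at that stage. In the 4 dpf table the highest means in wild types were those of the sodium channel beta subunit gene scn3b (60.4 ± 7.93 TPM), cacnb4b (51.5 ± 2.16 TPM) and kcnip1b (51.0 ± 7.83 TPM), a calcium-binding partner of Kv4 channels. The libraries of these 3 genes overlapped, so their order is not separated. The 10 most abundant of the 176 genes carried 32.9 to 41.6% of the channel TPM in wild types of the 4 dpf table. Among pores, scn8aa, the copy of the sodium channel of mature axon initial segments and nodes, led the sodium alpha subunits with 16.7 ± 1.92 TPM, kcnc1a, a Kv3 channel of fast-spiking neurons, led the Kv subunits with 17.3 ± 2.20 TPM, and cacna1aa, a P/Q-type channel of presynaptic terminals, led the calcium pores with 14.3 ± 1.72 TPM.

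The first comparison asked how the channel genes of wild types differed between the tables. They were mostly higher in the 4 dpf table: 57 of 104 tested genes (54.8%) were called higher and 4 (3.85%) lower, against 25.5% and 37.9% of all 17403 tested genes. A gene was called when its limma adjusted P did not exceed 0.05 and its log2 fold change reached 0.32 on the log2(TPM + 1) scale. Here a gene was tested if 6 or more of the 12 libraries reached 1 TPM. The median log2 fold change was 0.78 for the channel genes and -0.19 for all tested genes, and 0.91 and -0.01 after median-of-ratios rescaling, under which 71 channel genes were called higher and 3 lower, against 33.2% and 34.5% of all genes. Of the 104 genes, 18 passed the filter through the 4 dpf table alone and had to be higher there: cacna1fb, cacna2d4a, cacna2d4b, cacnb2b, cacng5a, cacng7b, kcnab2b, kcng4b, kcnh4b, kcnh6a, kcnip4b, kcnj5, kcnma1b, kcnn1b, kcnq2a, kcnq5b, kcnv2a and scn12aa. All 18 were called higher, as were 91.6% of the 906 genes of that kind in the tables, and their values below are a description. A further 6 passed through the 45 hpf table alone. Among the 80 that passed in both tables, 39 (48.8%) were called higher and 3 lower, against 23.2% and 37.8% of the 15538 genes of that kind. Counts by class and tissue below include the 18 and stand beside the 25.5% higher and 37.9% lower of all genes. The plot of stage changes by class gives every tested gene.

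**Figure D1:**
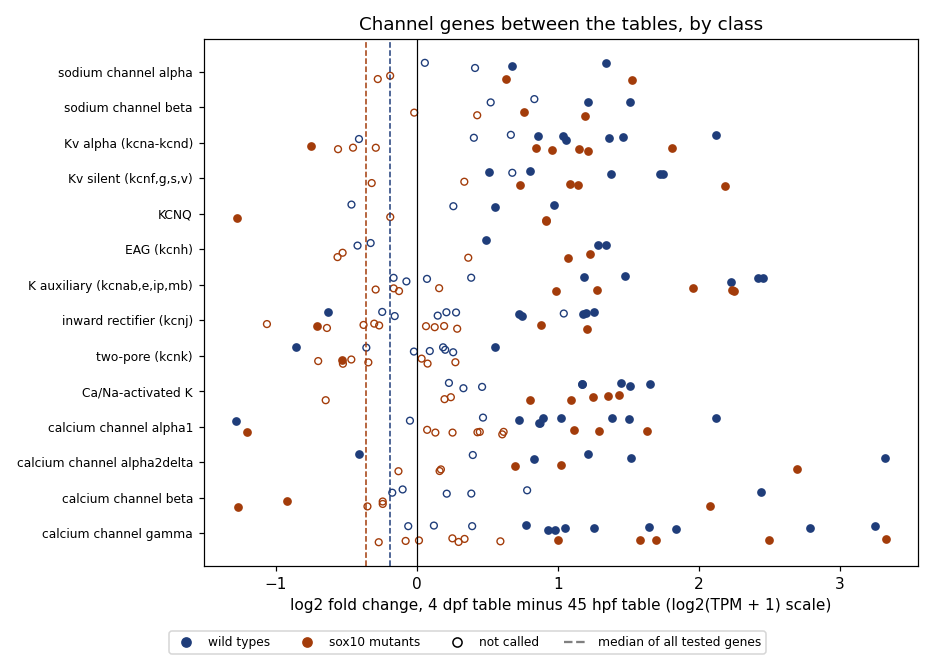
Log2 fold change between the tables (x axis, log2(TPM + 1) scale) of the 104 tested channel genes by class (y axis), in wild types (blue, upper points) and sox10 mutants (dark orange, lower points), with filled points for called genes and dashed lines for the median of all tested genes. In wild types 57 filled points lie to the right and 4 to the left, in mutants 41 and 7.

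Several calcium channel auxiliary subunits went from below 1 TPM to well above it, and the 4 described first are among the 18 genes that could only be higher. cacna2d4b (ENSDARG00000023886), the alpha2delta subunit that in mammals serves photoreceptor synapses, stood at 0.205, 0.185 and 0.274 TPM in the 3 wild types at 45 hpf and at 11.9, 9.49 and 12.4 TPM in the 4 dpf table (log2 fold change 3.32 ± 0.25 (SE), limma adjusted P = 2.16e-07). cacng7b (ENSDARG00000070624), one of the gamma-type genes known in mammals as partners of AMPA-type glutamate receptors, went from 0.229, 0.449 and 0.238 to 11.5, 12.9 and 9.92 TPM (log2 fold change 3.25 ± 0.17 (SE), limma adjusted P = 8.93e-09). cacng5a (ENSDARG00000003326), of the same group, went from 0.0722, 0.156 and 0.0594 to 5.25, 8.89 and 6.04 TPM (log2 fold change 2.79 ± 0.19 (SE), limma adjusted P = 6.83e-08). All 3 were below 1 TPM in every library at 45 hpf and at 3.77 TPM or more in every library of the 4 dpf table, mutants included. cacnb2b (ENSDARG00000055565), a beta subunit of L-type channels in heart and retina, went from 0.545, 0.776 and 0.559 to 7.75, 6.56 and 9.41 TPM (log2 fold change 2.44 ± 0.22 (SE), limma adjusted P = 1.03e-06).

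Among genes that passed in both tables, the largest rises on the log2(TPM + 1) scale were those of kcnip1b, kcnab1b and kcnb2a. kcnab2b (ENSDARG00000062134), a cytoplasmic Kv beta subunit and again one of the 18, went from 0.300, 0.407 and 0.411 to 7.27, 5.06 and 7.51 TPM (log2 fold change 2.46 ± 0.25 (SE), limma adjusted P = 2.42e-06). Its relative kcnab1b (ENSDARG00000040741) went from 0.971, 1.36 and 1.50 to 9.85, 10.9 and 8.28 TPM (log2 fold change 2.23 ± 0.16 (SE), limma adjusted P = 9.05e-08). kcnip1b (ENSDARG00000034808) stood at 7.39, 9.86 and 8.78 TPM at 45 hpf and reached 58.5, 51.7 and 42.9 TPM (log2 fold change 2.42 ± 0.16 (SE), limma adjusted P = 7.19e-08). In each of these 3 genes the lowest wild-type library of the later table lay above the highest of the earlier one. Of the 9 tested potassium auxiliary genes, 5 were called higher and 0 lower, and of the 5, kcnab2b and kcnip4b had to be higher.

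The pore subunit gene kcnb2a (ENSDARG00000038862), a delayed rectifier of the Kv2 type, went from 0.962, 0.754 and 0.973 to 10.17, 5.29 and 6.95 TPM (log2 fold change 2.12 ± 0.23 (SE), limma adjusted P = 4.76e-06). In the Kv shaker-type class 6 of 9 tested genes were called higher and 0 lower, and in the class of silent Kv subunits, which form channels only together with other Kv subunits, 5 of 6 and 0. Of the silent subunits called, kcng4b and kcnv2a had to be higher. kcnc1a went from 7.94 ± 1.50 to 17.3 ± 2.20 TPM and kcnc2, also of the Kv3 type, from 3.88 ± 0.595 to 11.6 ± 1.92 TPM (SD, n = 3, log2 fold changes 1.04 and 1.37, limma adjusted P = 8.06e-04 and 4.49e-05). Of the silent subunits, kcnf1b went from 1.28 ± 0.188 to 4.94 ± 0.570 TPM (log2 fold change 1.38 ± 0.16 (SE), limma adjusted P = 8.31e-06). In the KCNQ class kcnq2a, a subunit of the M current that restrains repetitive firing, went from 0.797 ± 0.0991 to 1.65 ± 0.283 TPM (log2 fold change 0.56 ± 0.15 (SE), limma adjusted P = 0.00537), while its partner kcnq3 was not called, at 4.61 ± 1.53 and 3.14 ± 1.47 TPM. kcnq2a is also 1 of the 18 genes that could only be higher. In the EAG class 3 of 5 tested genes were called higher, one of them kcnh4a, at 1.77 ± 0.198 and 2.89 ± 0.119 TPM (log2 fold change 0.49 ± 0.17 (SE), limma adjusted P = 0.0202). The others called, kcnh4b and kcnh6a, had to be higher.

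Of the sodium channel pores, 2 of 4 tested genes were called higher. One was scn8aa, with 8.23, 12.2 and 9.96 TPM at 45 hpf and 17.1, 14.6 and 18.4 TPM in the 4 dpf table (log2 fold change 0.68 ± 0.21 (SE), limma adjusted P = 0.0126). The other was scn12aa, a sodium channel gene of fish, from 0.147 ± 0.122 to 1.93 ± 0.507 TPM in wild types (log2 fold change 1.34 ± 0.20 (SE), limma adjusted P = 8.36e-05), and by the filter it had to be higher. scn1lab, an orthologue of the human SCN1A epilepsy gene, was not called as deposited, at 6.50 ± 1.05 and 9.05 ± 1.83 TPM (log2 fold change 0.41 ± 0.26 (SE), limma adjusted P = 0.185), and was called after rescaling (log2 fold change 0.60, limma adjusted P = 0.00351). The beta subunit gene scn3b rose from 20.6 ± 2.40 to 60.4 ± 7.93 TPM (log2 fold change 1.51 ± 0.29 (SE), limma adjusted P = 6.48e-04). The copies scn1laa, scn4aa and scn5lab stayed at or below 0.399 TPM in every library.

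Of the calcium pores, 7 of 11 tested genes were called higher and 1 lower. The L-type channel of photoreceptors, cacna1fb, went from 0.274, 0.534 and 0.399 to 5.31, 6.68 and 3.63 TPM (log2 fold change 2.12 ± 0.22 (SE), limma adjusted P = 2.83e-06), and by the filter it had to be higher. The T-type channel cacna1g went from 1.66 ± 0.343 to 4.38 ± 0.250 TPM (log2 fold change 1.02 ± 0.18 (SE), limma adjusted P = 2.37e-04). The one calcium pore that fell was cacna1sa (ENSDARG00000029457), an L-type channel that acts as the voltage sensor of skeletal muscle contraction. It stood at 4.39, 5.07 and 5.32 TPM at 45 hpf and 1.85, 1.09 and 1.42 TPM in the 4 dpf table (log2 fold change -1.28 ± 0.26 (SE), limma adjusted P = 8.20e-04), with no overlap. Among gamma-type genes 9 of 12 were called higher and 0 lower, with cacng8b and cacng2a, both of the AMPA receptor group, at 21.1 ± 1.67 and 17.6 ± 0.782 TPM in the later table against 6.07 ± 0.663 and 8.01 ± 1.07 TPM before (log2 fold changes 1.65 and 1.05, limma adjusted P = 1.55e-06 and 9.51e-05). Of the gamma-type genes called, cacng5a and cacng7b had to be higher. In the beta subunit class only cacnb2b was called, and it had to be higher too. cacnb4b and cacnb2a, at 58.3 ± 5.02 and 51.5 ± 2.16 TPM and at 7.86 ± 1.44 and 10.6 ± 1.44 TPM, were not.

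Another fall was that of kcnk5a (ENSDARG00000023587), an acid-sensitive background channel, from 1.79, 1.92 and 1.87 to 0.697, 0.443 and 0.613 TPM (log2 fold change -0.86 ± 0.14 (SE), limma adjusted P = 1.72e-04). kcnj1b (ENSDARG00000002666), an orthologue of the secretory potassium channel of the kidney, fell from 3.33, 4.16 and 3.92 to 2.29, 1.87 and 2.15 TPM (log2 fold change -0.63 ± 0.15 (SE), limma adjusted P = 0.00310). Neither gene's wild-type libraries overlapped between the tables. The copies kcnj1a.1 to kcnj1a.5 went the other way in wild types, with mean TPM 2.65 to 6.98 times as high in the 4 dpf table. For kcnj1a.6 the ratio was 0.855. None of these copies was called. kcnk5a is 1 of the 6 genes that passed through the 45 hpf table alone and could only be lower, and the 1 of them that was called, against 75.9% of the 959 genes of that kind. The alpha2delta gene cacna2d3 was the fourth, from 7.00, 8.42 and 8.63 to 5.63, 5.24 and 6.54 TPM (log2 fold change -0.41 ± 0.16 (SE), limma adjusted P = 0.0380). That call was lost after rescaling (log2 fold change -0.21, limma adjusted P = 0.310). Of the background channels, 1 of 8 tested genes was called higher (kcnk2a) and 1 lower, with a median log2 fold change of 0.14. Its 2 most abundant genes at 45 hpf, kcnk4a and kcnk6, had log2 fold changes of 0.09 and -0.02.

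**Figure D2:**
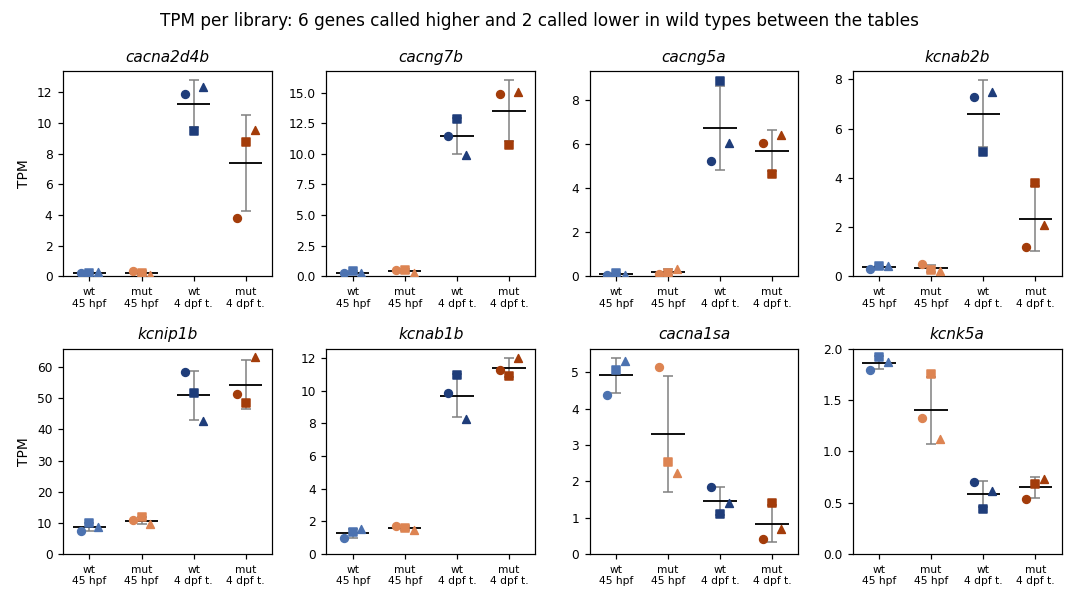
TPM (y axis) of 8 channel genes in the 12 libraries, by genotype (wt, wild types; mut, sox10 mutants) and table (4 dpf t., 4 dpf table), with circle, square and triangle for replicates 1, 2 and 3, black lines for the mean and grey bars for the SD (n = 3). cacna2d4b, cacng7b, cacng5a and kcnab2b are near 0 at 45 hpf, and cacna1sa and kcnk5a are lower in the 4 dpf table.

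By tissue of best-known use, all 7 tested channel genes of photoreceptors and hair cells were called higher in wild types. Of these, 5 passed through the 4 dpf table alone and had to be higher, and the other two were cacna1da and kcnma1a. The 7 had a median log2 fold change of 1.52, and the summed level of the list went from 8.09 ± 1.57 to 44.5 ± 2.98 TPM (SD, n = 3). Photoreceptor markers (11 genes, such as opsins and phototransduction genes) summed to 45.0 to 134 TPM in wild types at 45 hpf and 2370 to 2974 TPM in the later table, and hair cell markers (8 genes) to 36.7 to 48.9 and 111 to 144 TPM. Of the 10 tested heart channel genes 7 were called higher and 0 lower, 4 of the 7 (cacnb2b, kcnh6a, kcnj5 and scn12aa) being genes that had to be higher. Heart markers summed to 5.88 to 16.4 and 13.6 to 23.0 TPM. Of the neuronal lists, 3 of 7 sodium, 7 of 13 Kv and 8 of 15 calcium channel genes were called higher and none lower, and 3 of the 7 Kv calls (kcnab2b, kcnq2a and kcnq5b) were on genes that had to be higher. Neuron markers summed to 855 to 1118 and 1290 to 1484 TPM, with 4 of 9 tested markers called higher and 2 lower. In the list of ionocyte, kidney and epithelial channels 0 of 4 tested genes were called higher and 2 lower, kcnk5a being one of the latter. No marker of these lists was at 0 in all libraries of a group, and the part of cell numbers in these changes was not tested. Skeletal muscle channels went both ways, with 3 of 7 called higher and 1 lower. Muscle markers summed to 16120 to 20704 and 29659 to 47564 TPM, and they too went both ways, with 3 of 10 called higher and 3 lower.

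In sox10 mutants 41 of the 104 genes were called higher in the 4 dpf table (20.7% of all genes were) and 7 lower (42.9%), with a median log2 fold change of 0.28 as deposited and 0.62 after rescaling. The 41 include all of the 18 genes that passed through the 4 dpf table alone except kcnj5 and kcnma1b, and the filter favoured their rise. Of the 57 genes called higher in wild types, 40 were called higher in mutants too, 17 were not called and none was called lower. For cacng7b the log2 fold change was 3.33 in mutants and 3.25 in wild types, and for kcnab1b 2.25 and 2.23. The difference between the genotypes' stage changes, tested as an interaction, was called for 0 of 104 genes with limma (unadjusted p under 0.05 in 11 with a lower and 1 with a higher mutant value). Background for that test was 0.121% of genes lower and 0.144% higher. After quantile normalisation 2 genes were called lower in mutants, cacnb3b and kcnj3a, against 1.55% of genes lower and 2.37% higher. Without mutant 2 of the 4 dpf table, there were 6 lower, against 3.72% of all genes. The interaction with the smallest p was that of kcnma1b, one of the BK channel genes, which rose from 0.695 ± 0.114 to 3.74 ± 1.31 TPM in wild types and stood at 0.741 ± 0.386 and 1.04 ± 0.312 TPM in mutants (limma adjusted P = 0.142).

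The second comparison asked whether sox10 mutants differed from wild types at 45 hpf. None of the 90 tested channel genes was called in either direction with limma, where 0.499% of 17043 genes were called lower and 0.0587% higher. The unadjusted p was under 0.05 for 14 genes with lower and 1 with a higher value. Rescaling also left 0 calls, where 0.481% and 0.176% of all genes were called lower and higher, and so did quantile normalisation, where 0.516% and 0.288% were. The median log2 fold change was -0.26, beside -0.25 for all genes, and -0.07 after rescaling. In 14 genes (15.6%) all 3 mutants lay below all 3 wild types and in 1 above, against 23.7% and 1.94% of all tested genes. Mutant 1 was the highest of the 3 mutants in 85 of the 90 genes and mutant 3 the lowest in 77. Without mutant 1 limma called 37 genes lower, against 30.2% of all genes. The smallest unadjusted p was that of kcnip4a, a Kv4 partner, at 1.42, 1.41 and 1.71 TPM in wild types against 0.939, 0.590 and 0.393 TPM in mutants (log2 fold change -0.63 ± 0.18 (SE), limma adjusted P = 0.144).

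In the 4 dpf table the mutants were lower in many channel genes: 28 of 114 tested genes (24.6%) were called lower and 1 (0.877%) higher, against 18.8% and 1.56% of 17291 genes. The median was -0.53 for channel genes and -0.33 for all genes, and after rescaling, which moves the median of all genes to 0.01, it was -0.25, with 75 negative and 39 positive values. The adjusted P of the 29 calls lay between 0.0431 and 0.0494, so that all of them sat just inside the threshold. They did not persist: 0 genes were called after rescaling, against 0.15% of all genes lower and 0.081% higher. The unadjusted p was then under 0.05 for 37 negative and 13 positive values. A pseudocount of 0.1 or no filter also left 0 calls, where 43 of all 17291 and 17 of all 24775 tested genes were called lower. After quantile normalisation 5 were called lower and 2 higher, against 4.73% and 4.83% of all genes. Leaving out wild type 1, wild type 3, mutant 1 or mutant 3 gave 0 calls, where 0.0231 to 0.0868% of all genes were called lower and none higher. Leaving out mutant 2 gave 53 lower and 2 higher, against 32.1% and 3.62% of all genes. Leaving out wild type 2 gave 38 lower and 1 higher, against 20.4% and 1.53%. Of the 28 genes called lower as deposited, all 28 kept a negative value after rescaling, and 27 had an unadjusted p under 0.05 there. The 28 were selected as lower in these same libraries, so this is a description and not a further test. The share among all genes called lower was not taken. In 55 genes (48.2%) the mutant libraries all lay below the wild types and in 4 above, against 42.8% and 5.96% of all genes. After rescaling the counts were 33 (28.9%) and 17 (14.9%), against 22.2% and 21.6%. Genes that reached 1 TPM in the wild types alone, such as scn4ab and kcnj10a below, could only be lower, and they were not counted apart.

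**Figure D3:**
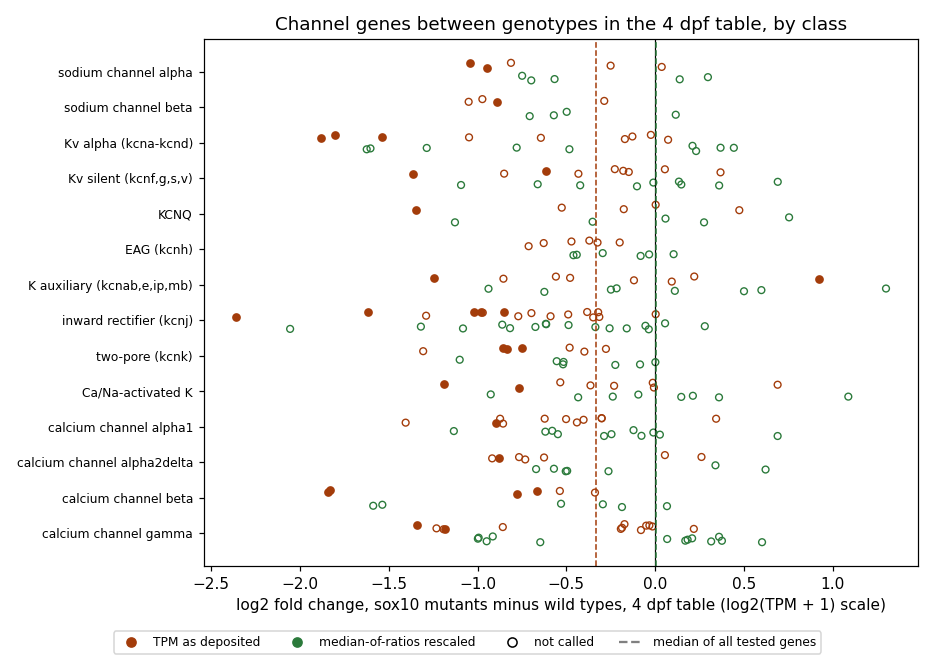
Log2 fold change between sox10 mutants and wild types in the 4 dpf table (x axis, log2(TPM + 1) scale) of the 114 tested channel genes by class (y axis), from TPM as deposited (dark orange, upper points) and after median-of-ratios rescaling (green, lower points), with filled points for called genes and dashed lines for the median of all tested genes. As deposited 28 filled points lie to the left and 1 to the right, and after rescaling no point is filled.

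The largest difference was that of kcnj11l (ENSDARG00000031438), a relative of the pore gene of ATP-sensitive potassium channels, with 15.1, 9.38 and 24.1 TPM in wild types against 0.831, 6.05 and 1.41 TPM in mutants (log2 fold change -2.36 ± 0.54 (SE), limma adjusted P = 0.0431). The Kv3 genes kcnc3a (ENSDARG00000055855) and kcnc1b (ENSDARG00000032959) stood at 6.99, 2.26 and 13.3 TPM against 0.473, 2.09 and 0.632 TPM (log2 fold change -1.88 ± 0.54 (SE), limma adjusted P = 0.0494), and at 4.87, 2.45 and 6.57 TPM against 0.131, 1.93 and 0.0892 TPM (log2 fold change -1.80 ± 0.45 (SE), limma adjusted P = 0.0432). As deposited, every mutant lay below every wild type in all 3 genes, though in kcnc3a rescaling puts mutant 2 above wild type 2. Mutants 1 and 3 were lowest, and mutant 2 lay closest to wild type 2, the lowest wild type. kcnd3 (ENSDARG00000056101), a Kv4 channel of transient currents, had the same order with 5.40, 2.29 and 6.93 TPM and 0.526, 1.58 and 0.727 TPM (log2 fold change -1.54 ± 0.36 (SE), limma adjusted P = 0.0431). So did kcns3a (ENSDARG00000006891), a silent partner of Kv2 channels, with 5.11, 3.50 and 6.43 TPM and 0.693, 2.90 and 0.826 TPM (log2 fold change -1.36 ± 0.36 (SE), limma adjusted P = 0.0440), and kcnj6 (ENSDARG00000058985), a G protein-coupled inward rectifier, with 8.13, 5.04 and 10.3 TPM and 1.05, 3.76 and 1.198 TPM (log2 fold change -1.62 ± 0.38 (SE), limma adjusted P = 0.0431). The M current gene kcnq3 was also called lower, at 3.07, 1.70 and 4.65 TPM and 0.420, 1.08 and 0.272 TPM (log2 fold change -1.35 ± 0.31 (SE), limma adjusted P = 0.0431).

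Counts of calls by class stand beside 18.8% of all genes called lower, and no call held after rescaling. Of the calcium channel beta subunits, 4 of 6 tested genes were called lower. cacnb1 (ENSDARG00000002167), the beta subunit of the skeletal muscle channel, stood at 13.2, 4.77 and 12.3 TPM in wild types against 1.00, 4.25 and 1.26 TPM in mutants (log2 fold change -1.84 ± 0.47 (SE), limma adjusted P = 0.0435). cacnb3b (ENSDARG00000076030) stood at 5.74, 2.72 and 8.86 TPM and 0.396, 1.65 and 0.483 TPM (log2 fold change -1.83 ± 0.40 (SE), limma adjusted P = 0.0431). cacnb2a and cacnb4a were the others, and cacnb4b was not called, at 51.5 ± 2.16 and 40.7 ± 4.84 TPM (log2 fold change -0.34 ± 0.14 (SE), limma adjusted P = 0.112). Of the sodium channel pores 2 of 5 tested genes were called lower, scn1lab at 9.73, 6.97 and 10.4 TPM and 2.83, 5.13 and 3.76 TPM (log2 fold change -1.04 ± 0.23 (SE), limma adjusted P = 0.0431) and scn4ab, the muscle sodium channel, at 2.10, 1.67 and 2.37 TPM and 0.314, 0.925 and 0.536 TPM (log2 fold change -0.95 ± 0.20 (SE), limma adjusted P = 0.0431). scn4ab reached 1 TPM in the wild types alone, so it passed the filter through them and could only be lower. scn8aa was not called, at 16.7 ± 1.92 and 13.9 ± 1.18 TPM (log2 fold change -0.25 ± 0.15 (SE), limma adjusted P = 0.231). Inward rectifiers gave 5 of 16, and 1 of the 5, kcnj14, reached 1 TPM in the wild types alone and could only be lower. Background channels gave 3 of 7, among them kcnk4a (log2 fold change -0.86 ± 0.23 (SE), limma adjusted P = 0.0450) and kcnk6 (log2 fold change -0.83 ± 0.21 (SE), limma adjusted P = 0.0431), and EAG channels 0 of 6.

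The 1 gene called higher was kcnip3b (ENSDARG00000017880), a calcium-binding Kv4 partner whose mammalian orthologue also acts as a transcriptional repressor. It stood at 9.51, 8.49 and 5.92 TPM in wild types against 16.0, 12.3 and 19.8 TPM in mutants (log2 fold change 0.92 ± 0.23 (SE), limma adjusted P = 0.0432), with every mutant above every wild type. At 45 hpf the genotypes overlapped, at 2.03, 3.31 and 3.47 TPM and 3.54, 3.16 and 3.24 TPM. The small-conductance calcium-activated channel gene kcnn1a followed the reverse of the common order, with 20.3, 21.2 and 16.3 TPM in wild types against 35.9, 21.7 and 40.1 TPM in mutants, with no overlap, but was not called (log2 fold change 0.69 ± 0.24 (SE), limma adjusted P = 0.0762).

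**Figure D4:**
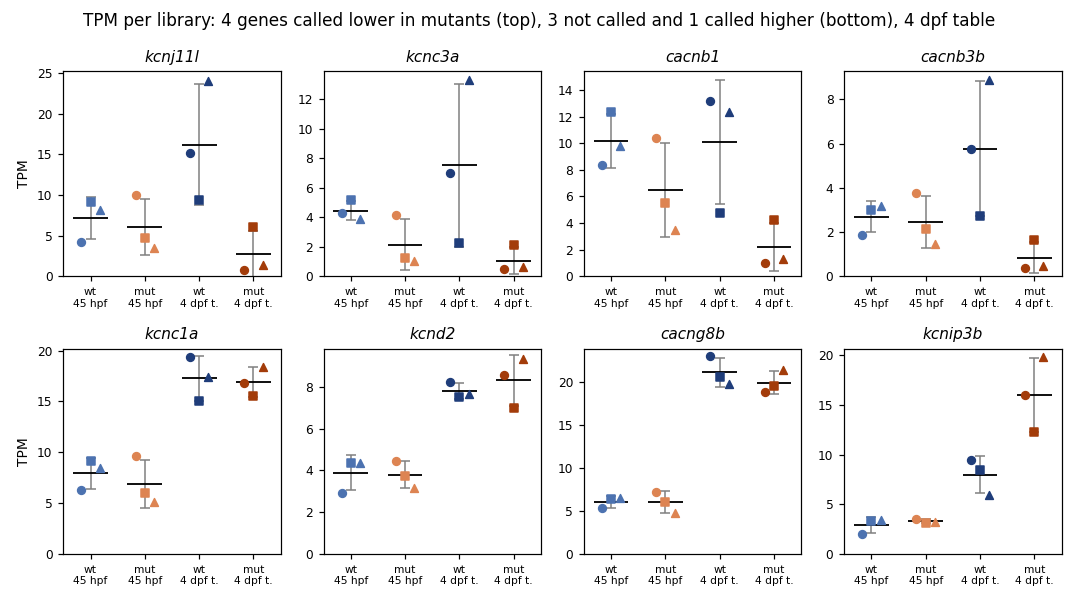
TPM (y axis) of 8 channel genes in the 12 libraries, by genotype (wt, wild types; mut, sox10 mutants) and table (4 dpf t., 4 dpf table), with circle, square and triangle for replicates 1, 2 and 3, black lines for the mean and grey bars for the SD (n = 3). In the top row mutants 1 and 3 of the 4 dpf table are lowest and mutant 2 lies nearest wild type 2, kcnc1a, kcnd2 and cacng8b overlap between the genotypes, and kcnip3b is higher in the mutants.

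Other neuronal channel genes overlapped between the genotypes in the same libraries in TPM as deposited. kcnc1a was at 19.4, 15.0 and 17.4 TPM in wild types against 16.8, 15.5 and 18.4 TPM in mutants (log2 fold change -0.02 ± 0.15 (SE), limma adjusted P = 0.915). kcnd2, the other abundant Kv4 gene, was at 8.22, 7.53 and 7.65 TPM and 8.59, 6.99 and 9.34 TPM (log2 fold change 0.07 ± 0.15 (SE), limma adjusted P = 0.734), and cacng8b was at 23.0, 20.6 and 19.8 TPM and 18.8, 19.5 and 21.4 TPM (log2 fold change -0.08 ± 0.14 (SE), limma adjusted P = 0.669). cacng2a, kcnc2 and kcnip1b likewise overlapped between the genotypes, with log2 fold changes of -0.03, -0.17 and 0.09. After rescaling these values become 0.36, 0.21 and 0.50, so the sign for cacng2a and kcnc2 depends on the scaling, as it does for kcnc1a and cacng8b. Rescaling divides the wild types of this table by 1.07 to 1.22 and the mutants by 0.716 to 0.981. With it every mutant lay above every wild type in kcnd2 and cacng8b, so their overlap holds only as deposited.

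Read by tissue, 3 of 8 tested skeletal muscle channel genes (37.5%) were called lower in mutants of the 4 dpf table, against 18.8% of all genes. Of these 3, scn4ab passed the filter through the wild types alone and could only be lower. All 8 values were negative, as were 77.4% of those of all tested genes. The median of the 8 was -1.21, or -0.93 after rescaling with none called. The summed level of the skeletal muscle channel list was 51.2 ± 19.0 TPM in wild types against 17.8 ± 13.3 TPM in mutants (SD, n = 3). None of the 10 skeletal muscle markers was called, though 9 had negative values and their median was -1.42. The markers' summed level was lowest in mutants 1 and 3, the libraries in which the channel genes were lowest, and its part in the result was not tested. Against the same 18.8%, neuronal sodium channels gave 2 of 7 called lower (28.6%), neuronal Kv channels 5 of 12 (41.7%) and neuronal calcium channels 3 of 16 (18.8%), and none higher, with medians of -0.89, -0.54 and -0.32. After rescaling these medians were -0.57, -0.30 and 0.01 with no calls. Neuron markers summed to 1290 to 1484 TPM in wild types against 1115 to 1256 TPM in mutants, with 2 of 9 tested markers called lower. Photoreceptor and hair cell channels gave 2 of 8 called lower (25.0%) and heart channels 2 of 12 (16.7%). The list of pigment cell and glial channels, tissues that depend on sox10, had 3 tested genes, none called, with a median of -1.29. kcnj13, the channel of zebrafish stripe mutants, stood at 3.40, 2.41 and 2.71 TPM in wild types against 1.44, 2.84 and 2.04 TPM in mutants, with overlap (log2 fold change -0.32 ± 0.21 (SE), limma adjusted P = 0.278). kcnj10a, a copy of the main potassium channel of glia in mammals, stood at 2.34, 1.07 and 5.14 TPM and 0.369, 0.682 and 0.265 TPM, with every mutant below every wild type, and missed the threshold (log2 fold change -1.29 ± 0.38 (SE), limma adjusted P = 0.0511). kcnj10a reached 1 TPM in the wild types alone, so it passed the filter through them and could only lie lower. Its log2 fold change is the same value as the median of the list. Pigment cell markers summed to 116 to 171 TPM in wild types and 29.9 to 64.7 TPM in mutants, and markers of myelinating glia to 248 to 365 and 107 to 120 TPM.

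A common genotype effect over both tables, with table as a factor, was called for 36 of 104 genes lower (34.6%) and 1 higher (0.962%), against 32.6% and 1.3% of 17403 genes. The median was -0.36 beside -0.28 for all genes. After rescaling the calls were 15 lower and 14 higher, against 11.5% and 11.6% of all genes, and after quantile normalisation 8 lower and 14 higher, against 9.44% and 9.85%. The 8 genes called lower under all 3 scalings were cacna1sb, cacnb1, cacng1a, kcnc1b, kcnc3a, kcnip4a, kcnj6 and scn1lab, and kcnip3b was the 1 gene called higher under all 3. The 8 are the same genes called lower after quantile normalisation, 7.69% of the 104, where 9.44% of all genes were. The share of all genes called under several scalings was not taken. A further 11 genes were called higher after both rescaling and quantile normalisation but not as deposited, so their call depends on the scaling: cacna1g, cacna2d3, cacng3b, cacng8a, kcnab1b, kcnd2, kcng4a, kcnip1b, kcnn1a, kcnq2a and kcnv2a. Without mutant 3 of 45 hpf there were 0 calls, against 0.305% of all genes lower and 0.0172% higher. The lower calls numbered 17 without wild type 2 and 60 without mutant 1 of 45 hpf, against 18.5% and 44.0% of all genes. They numbered 4, 8, 16 and 14 without wild type 1, wild type 3, mutant 1 and mutant 3 of the 4 dpf table, against 8.5%, 12.6%, 18.3% and 18.9% of all genes. The call of kcnip3b was lost without any single library of the 4 dpf table other than mutant 2, and without wild type 1 or mutant 3 of 45 hpf. Of the 8 genes called lower under all 3 scalings, 3 encode parts of the skeletal muscle channel complex, namely cacna1sb, its pore (log2 fold change -1.03 ± 0.28 (SE), limma adjusted P = 0.0215), cacnb1 (log2 fold change -1.26 ± 0.34 (SE), limma adjusted P = 0.0215) and the gamma subunit cacng1a (log2 fold change -1.02 ± 0.24 (SE), limma adjusted P = 0.0190). cacna1sb stood at 2.74, 2.73 and 2.85 TPM in wild types against 2.17, 1.36 and 0.819 TPM in mutants at 45 hpf, and at 5.23, 3.81 and 10.1 and 0.591, 3.77 and 1.36 TPM in the 4 dpf table. cacng1a stood at 5.62, 5.84 and 5.16 and 4.18, 2.81 and 2.29 TPM, and then at 11.6, 8.41 and 15.4 and 1.98, 6.99 and 4.05 TPM. In both genes every mutant lay below every wild type of its table in TPM as deposited. Rescaling, with factors of 0.981 for mutant 2 and 1.07 for wild type 2 of the 4 dpf table, reverses the order of these libraries in cacna1sb. Skeletal muscle markers at 45 hpf summed to 16120 to 20704 TPM in wild types against 7242 to 16766 TPM in mutants.

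The third comparison took the a and b copies of a gene as a ratio within each library, log2((a + 1)/(b + 1)), which no scaling between libraries can move apart from the added 1. A pair was tested when its sum reached 1 TPM in 6 or more libraries and each copy did in 3 or more, which held for 30 of 50 channel pairs. Of these, 25 shifted between the tables in a fit over both genotypes, against 72.6% of 2279 pairs of a and b genes in the tables. In 18 the b copy gained on the a copy and in 7 the reverse. The copies cacng7b, cacng5a, cacnb2b, kcnab2b, cacna2d4a and cacna2d4b were among those that reached 1 TPM in enough libraries through the 4 dpf table alone. The filter thus favoured a gain of these copies, and the shifts of their pairs below are a description. Reads of near-identical copies can be split uncertainly between them by the authors' pseudo-alignment.

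The skeletal muscle pores changed places. cacna1sa made up 61.6 to 65.1% of the pair with cacna1sb in wild types at 45 hpf and 12.3 to 26.1% in the 4 dpf table, and 65.0 to 73.1% and then 27.2 to 40.6% in mutants (difference of log2 ratios -1.75 ± 0.20 (SE), limma adjusted P = 7.68e-06). In zebrafish the copies are known from slow and from fast muscle fibres respectively. The GIRK pair kcnj3a and kcnj3b, inward rectifiers of heart and neurons, crossed within narrow limits: kcnj3a held 54.0 to 54.9% in wild types at 45 hpf and 32.7 to 34.8% later, and 57.7 to 61.6% and 17.8 to 23.6% in mutants (-1.48 ± 0.09, limma adjusted P = 3.98e-08). For cacnb2a and cacnb2b the share of the a copy went from 92.4 to 93.0% to 53.2 to 60.6% in wild types (-2.19 ± 0.16, limma adjusted P = 1.63e-07). kcnab2a fell from 89.9 to 92.9% of its pair to 31.3 to 41.7% (-1.97 ± 0.20, limma adjusted P = 2.77e-06).

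The largest shifts were in the gamma-type pairs. cacng7a made up 65.8 to 68.9% of the cacng7 pair in wild types at 45 hpf and 9.13 to 25.8% in the 4 dpf table (-2.78 ± 0.26, limma adjusted P = 1.23e-06), while cacng5a rose from 4.92 to 9.49% of the cacng5 pair to 68.2 to 89.3% (2.58 ± 0.27, limma adjusted P = 3.28e-06). Further pairs in which the b copy gained were kcnab1 (-2.00), cacna2d4 (-1.89) and kcnt1 (-1.66), all with limma adjusted P below the threshold. Both cacna2d4 copies passed through the 4 dpf table alone, so the shift of that pair is a description. The pairs that did not pass were cacna1aa and cacna1ab, cacng8a and cacng8b, cacnb4a and cacnb4b, kcnn1a and kcnn1b, and cacng6a and cacng6b. The last had an adjusted P within the threshold and a change under the fold minimum.

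**Figure D5:**
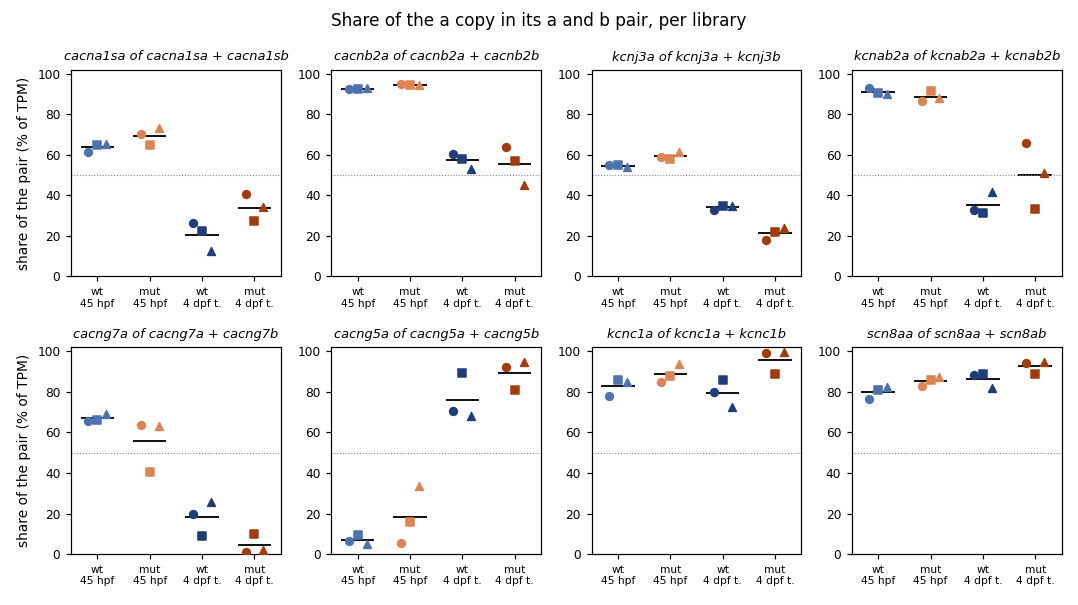
Share of the a copy in the summed TPM of its a and b pair (y axis, percent) for 8 channel pairs in the 12 libraries, by genotype (wt, wild types; mut, sox10 mutants) and table (4 dpf t., 4 dpf table), with circle, square and triangle for replicates 1, 2 and 3, black lines for the mean and a dotted line at equal shares. cacna1sa falls from 61.6 to 65.1% to 12.3 to 26.1% in wild types, and kcnc1a is highest in the mutants of the 4 dpf table.

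Between the genotypes 10 of the 30 pairs (33.3%) differed, against 32.7% of all pairs. The largest difference was that of kcnc1a and kcnc1b (1.01 ± 0.27, limma adjusted P = 0.0199): kcnc1a held 72.6 to 86.0% of the pair in wild types of the 4 dpf table and 88.9 to 99.5% in mutants, and 78.1 to 86.1% and 84.9 to 93.6% at 45 hpf. kcnt1a, a sodium-activated channel gene, held 20.2 to 57.2% of its pair with kcnt1b in wild types at 45 hpf and 74.6 to 82.6% in mutants, and 15.6 to 21.3% and 21.5 to 39.8% in the 4 dpf table (0.99 ± 0.20, limma adjusted P = 0.0110). In scn8aa and scn8ab the share of the a copy was also higher in mutants (0.42 ± 0.15, limma adjusted P = 0.0495), as it was in cacng4a and cacng4b (0.57 ± 0.18, limma adjusted P = 0.0310) and in kcnma1a and kcnma1b (0.39 ± 0.13, limma adjusted P = 0.0429). The b copy gained in mutants in pairs that included cacng7 (-0.79), kcnab1 (-0.75), kcnip4 (-0.51) and kcnj19 (-0.36). The count of pairs was 14 without wild type 2 or mutant 2 of the 4 dpf table (39.9% and 43.9% of all pairs), 7 without mutant 1 of 45 hpf (33.5%), and 2 to 6 without any other library (16.2 to 26%). The count was 2 without mutant 3 of 45 hpf or wild type 3 of the 4 dpf table.

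Genes that work with these channels, such as ryanodine receptors, sodium pumps, ankyrins and the leak channel nalcn, were read from a list of 42, of which 37 were used. Of 28 tested between the tables in wild types, 10 were called higher (35.7%) and 2 lower (7.14%), against 25.5% and 37.9% of all genes. nalcn, the sodium leak channel of resting neurons, stood at 10.18, 10.8 and 9.41 TPM and then 25.0, 26.9 and 18.0 TPM (log2 fold change 1.11 ± 0.18 (SE), limma adjusted P = 1.54e-04), and hcn2b, a pacemaker channel, at 2.83, 3.47 and 3.11 and 11.0, 9.49 and 10.1 TPM (log2 fold change 1.44 ± 0.20 (SE), limma adjusted P = 4.99e-05). Of 29 tested in the 4 dpf table, 5 were called lower in mutants (17.2%, against 18.8% of all genes) and 0 higher, and after rescaling 0. The 5 were lgi1b, fgf14, nalf1a, unc80 and atp1a1a.1. fgf14, a cytoplasmic partner of sodium channels, stood at 16.4, 9.29 and 21.2 TPM in wild types against 1.27, 8.05 and 2.09 TPM in mutants (log2 fold change -1.99 ± 0.53 (SE), limma adjusted P = 0.0446), in the same order of libraries as kcnc3a and kcnj11l. Of 28 tested over both tables, 10 were called lower (35.7%, against 32.6% of all genes), stac3, jph2 and jph1b of the muscle triad among them, and 0 higher. After rescaling 3 of the 28 were lower and 6 higher, against 11.5% and 11.6% of all genes.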

How the data were processed

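RNA from pools of whole larvae was sequenced after poly-A selection as stranded, paired-end libraries. The submitters' processing notes name Trimmomatic 0.39, kallisto and GRCz11. The authors deposited TPM values per gene, which are estimated counts scaled by transcript length and library total, and the read counts behind them were not used here, so depth per sample is unknown and no counting interval is given. The summed TPM of a library was 934603 to 953131. Groups follow the labels. Of 18 labelled libraries 12 were distinct, because the 4 dpf and 7 dpf tables are identical. Each table had 25896 lines, of which 315 repeated a gene and were dropped, and 3512 genes had no symbol. The study tested counts with DESeq2, which was not repeated on TPM.

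Genes that reached 1 TPM in 3 or more of a table's 6 libraries, or in 6 or more of the 12 for both tables, were tested with limma 3.58.1 (R 4.3.3) on log2(TPM + 1), with a mean-variance trend and Benjamini-Hochberg adjustment over all tested genes. Fold changes on this scale understate the change of low genes. Both-table fits shared one estimate of the spread. Stage, interaction and paralog fits used genotype by table, and the common genotype effect used genotype with table as an added factor. Copies a and b were tested as the log2 ratio of TPM + 1 in each library. The scripts were tested on simulated data. The exact permutation test of sox10 used scipy 1.17.1, and Python 3.11.15, numpy 2.4.6, pandas 2.3.3 and matplotlib 3.10.9 were used for the rest. Median-of-ratios rescaling divides each library by its median ratio to the mean library. Other alternatives were quantile normalisation, a pseudocount of 0.1, other filters, a replicate block, robust variances, a 2-fold minimum and each library left out.

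The genes, lists and tests were chosen with earlier results of these data known. Genes named with values are, by rule, up to 8 of the largest rises and falls among calls in each comparison, the 2 most abundant of each class, the most abundant of each tissue list, and up to 8 of the largest paralog shifts. kcnd2, kcnj10a, kcnj3a, the kcnj1a copies, cacna1fb, scn4ab, scn12aa, kcnk2a, the 3 sodium channel copies of lowest level, the uncalled paralog pairs, and the genes outside the channel families were chosen after their values were seen. No sequences are shown, since none were used here. Results for 1 gene and its copies are not reported here.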

Additional observations from a re-analysis of the deposited data

How the results depend on the processing

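The rise of channel genes between the tables in wild types kept its direction under every alternative run. The 57 of 104 called higher became 89 of 176 with no filter and 19 of 28 with a mean of at least 5 TPM. With single libraries left out 49 to 67 of the 104 were called higher. All genes gave 5705 of 24983, 2674 of 10746 and 21.9 to 26.6% in these runs. The 4 lower became 1 with a mean of at least 5 TPM or a 2-fold minimum. They became 7 in a fit of the 6 wild-type libraries, and 3 to 6 with single libraries left out. All genes gave 4810 of 10746 lower with that mean, 3975 of 17403 with the 2-fold minimum and 7290 of 18424 in that fit. With single libraries left out 32.5 to 38.8% of all genes were called lower. In mutants, 41 higher became 17 with a mean of at least 5 TPM and 37 to 45 with single libraries left out, and 7 lower became 1 with a mean of at least 5 TPM, 3 with a 2-fold minimum and 3 to 13 with single libraries left out (11 without mutant 3 of 45 hpf or wild type 2 of the 4 dpf table, 13 without mutant 2 and 3 or 4 without mutant 1 or 3 of that table, and 3 without mutant 1 of 45 hpf). In mutants all genes gave 2238 of 10746 higher and 5422 lower with that mean. With single libraries left out 17.6 to 22.4% of all genes were called higher and 35.7 to 47.2% lower. The interaction gave 2 lower after quantile normalisation and 0 to 6 with single libraries left out.

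The genotype calls depended on the processing, and the cause was not tested. In the 4 dpf table, 28 lower and 1 higher became 0 and 0 with a pseudocount of 0.1, with no filter, after median-of-ratios rescaling and with genes above 10000 TPM removed (an alternative chosen after seeing the data), 5 and 2 after quantile normalisation, 5 lower with a mean of at least 5 TPM, and 15 and 0 with a 2-fold minimum. With that mean 36 channel genes were tested, and 1370 of all 9907 tested genes were called lower. With the 2-fold minimum 2044 of all 17291 were called lower. The fit of both tables gave 40 lower and 3 higher in the 4 dpf table, against 5229 and 587 of all 17403 tested genes. With genes above 10000 TPM removed, 32 of all 17275 tested genes were called lower in that table and 16 higher. Single libraries left out gave 0 to 53 lower and 0 to 2 higher, and at 45 hpf 0 to 37 lower and 0 higher. Over both tables, 36 lower and 1 higher became 15 and 14 after rescaling, 8 and 14 after quantile normalisation, 22 and 4 with genes above 10000 TPM removed, 5 lower with a mean of at least 5 TPM, 7 and 0 with a 2-fold minimum and 0 higher with no filter, and 0 to 60 lower and 0 to 1 higher with single libraries left out. Over both tables all genes gave 3624 lower and 567 higher of 17387 with genes above 10000 TPM removed. They gave 3237 of 10746 lower with that mean, where 28 channel genes were tested, and 1089 of 17403 lower with the 2-fold minimum. With a 2-fold minimum 11 paralog pairs differed between tables and 1 between genotypes, against 906 and 129 of all 2279 pairs. Single libraries left out gave 24 to 25 and 2 to 14 pairs, against 70.6 to 74.3% and 16.2 to 43.9% of all pairs. None of 30 named calls changed direction. Uncalled values in the 4 dpf table, among them those of cacng2a, kcnc2, kcnc1a and cacng8b, changed sign after rescaling. Of these 30 calls, 19 were lost with the replicate block, 12 after rescaling, 12 with genes above 10000 TPM removed, 8 after quantile normalisation and 9 with a pseudocount of 0.1.

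The labels do not say that replicate numbers pair the samples. The correlations of same-numbered deviations were -0.31, -0.26 and -0.01 at 45 hpf and -0.15, -0.61 and -0.38 in the 4 dpf table. With 3 libraries a group, these values cannot tell whether same-numbered samples shared a clutch. With the replicate block, 2 genes were called lower and 1 higher at 45 hpf, 0 and 0 in the 4 dpf table, 0 and 0 over both tables, 4 lower between tables in mutants, and 0 paralog pairs between genotypes. All genes gave 3.93% lower and 0.399% higher calls at 45 hpf with that block and 0.0116% lower in the 4 dpf table. The other counts with the block were 50 higher and 3 lower between tables in wild types and 37 higher in mutants. There were 0 for the interaction and 24 paralog pairs between tables. All genes gave 21.9% higher and 32.7% lower in wild types, 17.5% higher and 36.6% lower in mutants, and 1567 of 2279 pairs. Without counts, depth and the precision it gives are unknown, and 3 libraries a group leave low channel genes untested.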

Other observations

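The following channel genes did not reach 1 TPM in 6 of the 12 libraries and so had no test between the tables. They were chosen after their values were seen. kcnk10b, a background channel gene, stood at 1.77, 2.98 and 1.86 TPM in wild types at 45 hpf and at 0.180, 0.0997 and 0.244 TPM in the 4 dpf table. kcnj9, a G protein-coupled inward rectifier, stood at 2.43, 3.49 and 2.87 and 0.956, 0.0812 and 1.30 TPM. The inward rectifier gene kcnj14 stood at 0.0907, 0.0367 and 0.0748 and 1.51, 1.61 and 1.97 TPM.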
